A study of Mus musculus with 6 samples.

Results

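The genes described here are the SOX trio, Sox9, Sox5 and Sox6, with 6 genes of cartilage matrix and its cells, Col2a1, Acan, Hapln1, Snorc, Cnmd and Ucma. They were taken by symbol from the gene annotation, and all 9 were found among the 55536 genes of the count table and passed the filter on low counts that left 15712 genes. RNA was sequenced from perichondrium, the sheath of connective tissue around cartilage, that was dissected from the limb bones of 4-day-old (P4) mice. The 3 knockout libraries (mut-596, mut-597 and mut-795) came from mice labelled Fbn1Scx-/-. The title of mut-596 names ScxCRE, and those of mut-597 and mut-795 name Koscx. In this system Cre is driven by the promoter of the tendon and ligament gene scleraxis, so that cells outside that lineage keep Fbn1, which encodes the microfibril protein fibrillin-1. The 3 wild-type libraries (WT-596, WT-597 and WT-795) carry no allele beyond WT in their labels, which do not say whether they held Cre or floxed alleles, what the numbers mean, or that each library is a separate animal. P-values therefore measure the spread between libraries, which may be technical. Values of a group are given in the order of the library names above. The comparison asked which transcripts differ in perichondrium that lost Fbn1, in a study of long bone overgrowth and TGFβ signalling in a mouse model of Marfan syndrome.

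In the embryo and in growing bones SOX9 is the master transcription factor of the chondrocyte lineage. SOX5 and SOX6, which lack a transactivation domain, bind beside it on cartilage enhancers and raise the output of its target genes. The matrix those targets build is a network of type II collagen fibrils that holds aggrecan, whose chondroitin sulphate chains draw in water, and link protein, which pins aggrecan to hyaluronan. Cells of the perichondrium can enter this lineage, and the tissue itself expresses little cartilage matrix.

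The libraries held between 7209217 and 10316017 counts, and Fbn1 fell in the knockout, with a log2 fold change of -3.48 (SE 0.29, edgeR adjusted p = 1.03e-04). Xist, which is expressed from the inactive X chromosome of females, had 6221 counts in mut-596, 4024 in mut-597 and 4 or fewer elsewhere. Ddx3y, a Y chromosome gene, had 1641 counts in mut-795, 842 to 1199 in wild-type libraries and 0 wherever Xist was high. This is the pattern of female tissue for mut-596 and mut-597, and of male tissue for mut-795 and every wild-type library. Sex was therefore not balanced between the groups, and its part was not tested beyond the Xist covariate given below. Fold changes over all genes were lower at higher GC content of the transcript (Spearman rho = -0.62 across 15701 genes, which are not independent replicates). Summed perichondrium and fibroblast markers lay between 39534 and 40578 CPM, or TMM-scaled counts per 1e6 reads counted, in knockout libraries and between 40058 and 40808 CPM in wild-type libraries, with all 20 markers detected. Most of that sum was Col1a1, Col1a2 and Col3a1, at means of 6571, 16771 and 7366 CPM in knockout libraries. In wild-type libraries these were at 9809, 15364 and 7284 CPM, so the sum says little about the other markers. Of the 20 log2 fold changes, 11 lay above 0 and 9 below. At an unadjusted edgeR p under 0.05, 1 of the 20 was higher (Ogn) and 1 lower (Clec3b), beside 3.37% of all genes higher and 7.12% lower. Summed skeletal muscle markers lay between 3264 and 6452 CPM in knockout and between 4244 and 13300 CPM in wild-type libraries, with WT-597 the highest and mut-596 the lowest. Of 17 muscle markers tested 15 lay below 0, with a median log2 fold change of -0.68. At an unadjusted edgeR p under 0.05, 5 were lower, beside 7.12% of all genes lower and 3.37% higher, and none passed the threshold. The part of muscle markers in the results was not tested beyond the covariate given beside them. No endothelial, macrophage, osteoclast, erythroid or Schwann cell marker passed the edgeR threshold. The unadjusted edgeR p was under 0.05 for 2 of 10, 4 of 9, 0 of 5, 0 of 7 and 3 of 8 tested. All of these were lower but 1 macrophage and 3 Schwann cell markers, beside 7.12% of all genes lower and 3.37% higher.

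No member of the set passed the edgeR quasi-likelihood test over all genes (0 of 9, where the test called 1 of 15712 genes, 0.00636%). At an unadjusted p under 0.05 the test found 1 of the 9, Acan, lower in knockout, beside 7.12% of all genes lower and 3.37% higher. Acan was also the one member whose groups did not overlap, beside 11.9% of all genes. Of the fitted fold changes 6 lay above 0 and 3 below, with a median of 0.10 (log2) beside 0.01 over all genes tested. DESeq2 also called none of the 9, beside 0.00636% of all genes, and had Acan at an unadjusted p under 0.05, beside 9.83% of all genes. The authors' deposited table of differential genes lists Acan, at a log2 fold change of -0.54, and no other member. By symbol that table holds 7.59% of the genes tested here, so 1 of 9 is near that share. In bulk tissue fewer chondrocytes and less RNA per chondrocyte cannot be told apart.

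**Figure D1:**
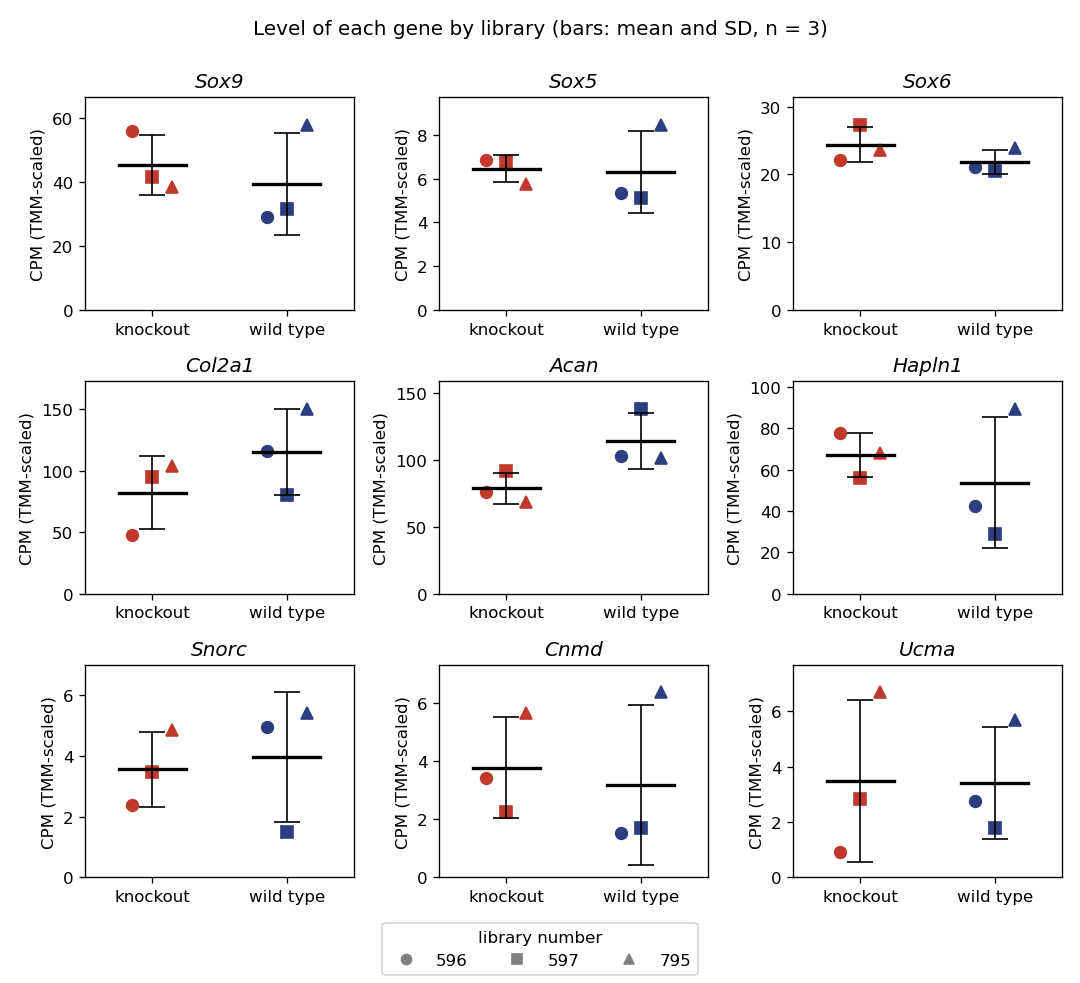
Level of each gene in TMM-scaled CPM (y axis, from 0, own scale per panel) in knockout and wild-type libraries, one point per library, its shape giving the library number, with the mean and SD of 3 libraries. Acan is the panel in which every knockout point lies below every wild-type point, and WT-795 is the highest wild-type library in 8 of the 9 panels.

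Sox9 was read by 423, 277 and 372 counts in the knockout libraries, which is 55.9, 41.5 and 38.3 CPM, against 305, 335 and 417 counts in the wild-type libraries, which is 29.0, 31.6 and 57.8 CPM. The knockout libraries lay above WT-596 and WT-597 and below WT-795, so the groups overlapped. The knockout libraries averaged 45.2 ± 9.36 CPM and the wild-type libraries 39.5 ± 15.9 CPM (SD, n = 3 each), a log2 fold change of 0.20 (SE 0.28) with a 95% interval from -0.39 to 0.79. The difference was smaller than the spread between libraries (edgeR adjusted p = 0.751). The exact permutation test on log2 CPM, two-sided, gave p = 0.6, where 3 libraries against 3 cannot go below 0.1. Without WT-795 the log2 fold change was 0.55 (edgeR adjusted p = 0.120), and with a covariate for muscle markers it was -0.029. With the covariate for the Xist libraries, which rests on mut-795 as its only knockout library, it was -0.040. The log2 fold change was 0.020 without mut-596, 0.021 without WT-596 and 0.057 without WT-597. Sox9 (ENSMUSG00000000567) is on chromosome 11, plus strand, from 112782224 to 112787760 in GRCm38, and no other annotated gene overlaps it.

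Sox5 had the fewest counts of the trio. There were 52, 45 and 56 counts (6.87, 6.75 and 5.76 CPM) in the knockout libraries, against 56, 54 and 61 counts (5.32, 5.10 and 8.45 CPM) in the wild-type libraries. All 3 knockout libraries again lay between the lower pair of wild-type libraries and WT-795. The log2 fold change was 0.05 (SE 0.30, 95% interval from -0.60 to 0.69, edgeR adjusted p = 0.951), and its sign changed with the GC correction and with either covariate. Of its exon bases 1330 are shared with Sox5os1, a gene on the opposite strand, and because the counting is not stated to use strand, reads of the pair cannot be told apart there.

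Sox6 was even across libraries. It was at 22.2, 27.3 and 23.7 CPM in the knockout libraries, against 21.1, 20.5 and 23.8 CPM in the wild-type libraries. Its coefficient of variation among wild-type libraries, 8.21%, was the lowest of the 9, and among knockout libraries it was 10.8%, with Sox5 lower at 9.41%. For Sox9 it was 20.7% among knockout and 40.4% among wild-type libraries. The log2 fold change was 0.16 (SE 0.22), and its 95% interval from -0.30 to 0.62 was the narrowest of the 9 (edgeR adjusted p = 0.741). It was 0.046 with the GC correction and 0.074 without mut-597. Within libraries the log2 ratio of Sox6 to Sox9 was -0.87 ± 0.39 in knockout and -0.78 ± 0.43 in wild type (SD, n = 3 each, exact permutation p = 0.6). That of Sox5 to Sox9 was -2.75 ± 0.21 in knockout and -2.57 ± 0.17 in wild type (SD, n = 3 each, exact permutation p = 0.4). The differences of -0.09 and -0.18 between the groups lay within the larger SD of a group.

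Col2a1, which encodes the chain of type II collagen and is the classical SOX9 target, was at 48.1, 94.8 and 103 CPM in the knockout libraries (364, 632 and 1005 counts). In the wild-type libraries it was at 116, 79.8 and 150 CPM (1223, 846 and 1081 counts). WT-597 lay inside the knockout range, and mut-596 stood lowest of all. The log2 fold change was -0.49 (SE 0.30, 95% interval from -1.13 to 0.15, edgeR adjusted p = 0.506, exact permutation p = 0.4). It was -0.22 without mut-596, -0.29 without WT-795, -0.16 with the Xist covariate and -0.14 with the GC correction. Leaving out mut-597, mut-795 or WT-597 moved it away from 0, to -0.60, -0.70 and -0.71. The transcript of Col2a1 is rich in G and C (62.2%, beside a median of 49.1% over the genes with a value). The gene (ENSMUSG00000022483) is on chromosome 15, minus strand, from 97975602 to 98004695.

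Acan, which encodes the core protein of aggrecan, was at 75.9, 91.8 and 68.9 CPM in the knockout libraries (575, 612 and 670 counts). In the wild-type libraries it was at 103, 138 and 101 CPM (1085, 1467 and 731 counts). Every knockout library lay below every wild-type library, the closest being mut-597 and WT-795. The knockout libraries averaged 78.9 ± 11.7 CPM and the wild-type libraries 114 ± 20.9 CPM (SD, n = 3 each). The log2 fold change was -0.54 (SE 0.22, 95% interval from -1.01 to -0.06), with an unadjusted edgeR p of 0.0304 and an adjusted p of 0.459. The exact permutation p was 0.1, the smallest the design allows. Acan stayed below 0 in every alternative run, between -0.73 with the Xist covariate and -0.24 with the GC correction. The Xist covariate leaves mut-795 as the only knockout library compared. In the other runs the adjusted p of Acan lay between 0.0662 and 0.926. The unadjusted edgeR p was 0.217 with the GC correction, 0.287 with it and the replicate block, and 0.0919 with the muscle covariate. It was 0.0809 without mut-596, 0.1004 without mut-795 and 0.102 without WT-597. Without WT-795, WT-596 or mut-597 it was 0.00883, 0.0348 and 0.0357. With the other scalings and filters it lay between 0.0207 and 0.0279, and with the replicate block alone it was 0.0383. The unadjusted p of limma-voom was 0.0401. The Acan transcript has 54.8% G and C. The gene (ENSMUSG00000030607) is on chromosome 7, plus strand, from 79053483 to 79115099.

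Hapln1, which encodes link protein, had a fitted fold change above 0, and its wild-type libraries were more scattered than those of Col2a1 or Acan, with a coefficient of variation of 59.2% beside 30.4% and 18.3%. It was at 77.5, 56.1 and 67.9 CPM in the knockout libraries (587, 374 and 660 counts). In the wild-type libraries it was at 42.5, 29.1 and 89.5 CPM (447, 308 and 646 counts). All knockout libraries lay above WT-596 and WT-597 and below WT-795. The knockout libraries averaged 67.2 ± 10.7 CPM and the wild-type libraries 53.7 ± 31.8 CPM (SD, n = 3 each), a log2 fold change of 0.33 (SE 0.33, edgeR adjusted p = 0.658). Without WT-795 it was 0.88 and past the threshold (edgeR adjusted p = 0.0362), in a fit that called 9.62% of all genes. With the GC correction the log2 fold change was 0.01 and with the muscle covariate 0.03, and the transcript has 39.8% G and C. Hapln1 (ENSMUSG00000021613) is on chromosome 13, plus strand, from 89539796 to 89611652.

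Snorc, Cnmd and Ucma were read by few counts. Snorc encodes a transmembrane proteoglycan of chondrocytes, Cnmd encodes chondromodulin, an inhibitor of blood vessel growth into cartilage, and Ucma encodes a small Gla-rich secreted protein of resting and upper growth plate chondrocytes. Snorc had 18, 23 and 47 counts in the knockout libraries, against 52, 16 and 39 counts in the wild-type libraries. Its log2 fold change of -0.12 (SE 0.45, edgeR adjusted p = 0.913) changed sign with the GC correction (0.26) and the Xist covariate (0.31). Cnmd had 26, 15 and 55 counts in the knockout libraries, against 16, 18 and 46 counts in the wild-type libraries. The highest levels of Cnmd were in WT-795 and mut-795, and the log2 fold change was 0.32 (SE 0.53, edgeR adjusted p = 0.797). It was 1.23 without WT-795, 0.87 with the Xist covariate and 0.054 with the muscle covariate. Ucma had 7, 19 and 65 counts in the knockout libraries, against 29, 19 and 41 counts in the wild-type libraries. The 7 counts of mut-596 have an exact Poisson 95% interval from 2.81 to 14.4 counts and the 65 of mut-795 from 50.2 to 82.8. These intervals cover counting error only, since reads without molecular identifiers are not independent molecules. The log2 fold change of Ucma was 0.10 (SE 0.57, edgeR adjusted p = 0.947), with a 95% interval from -1.12 to 1.31, and it was -0.85 without mut-795 and 1.001 with the Xist covariate. The 95% interval of each of these 3 genes still held a 2-fold difference in at least 1 direction, so a change of that size was not excluded. The same was true of Col2a1 and Acan, whose intervals reached -1.13 and -1.01, and of Hapln1, whose interval reached 1.04 (log2).

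**Figure D2:**
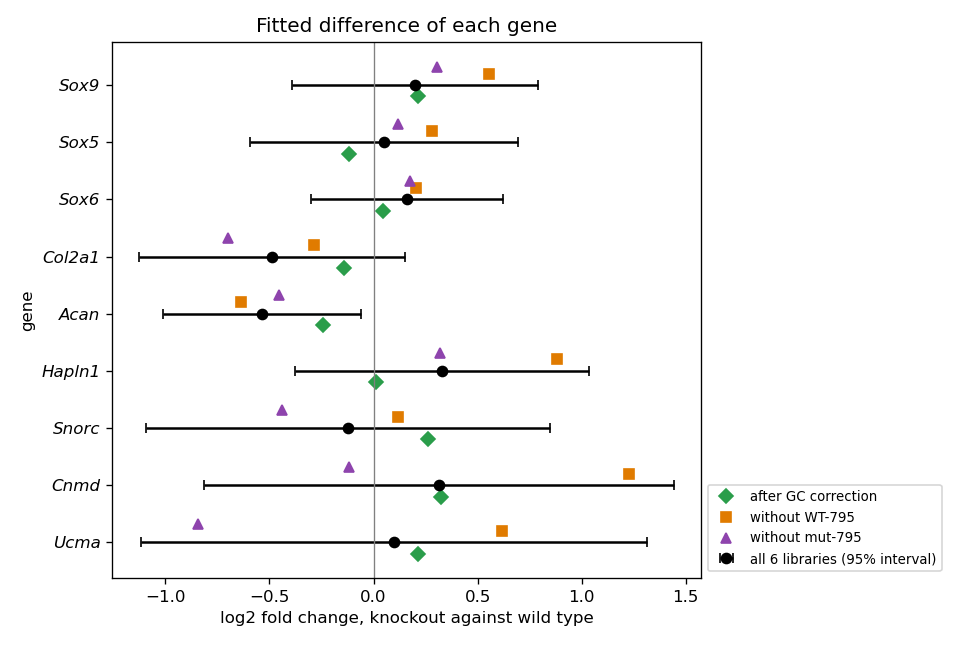
Fitted log2 fold change, knockout over wild type (x axis), for each gene (y axis), with all 6 libraries and its 95% interval (black), after the GC correction (green), without WT-795 (orange) and without mut-795 (purple). The interval of Acan is the one that does not reach 0, Hapln1 is at 0.88 without WT-795, and Ucma changes sign without mut-795.

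The promoters below belong to the gene whose groups did not overlap (Acan), to a pair with an r above 0.8 across libraries (Hapln1 and Cnmd), and to the member with the highest r to Col2a1 (Ucma), although no pair passed adjustment. RefSeq promoter windows of GRCm38.p6, from 250 bases before to 50 after a start, were matched for 6 of the 9 genes. Capitals mark ACAAT and ACAAAG, cores that SOX proteins can bind, and TATAAA, each searched on both strands. Over all 32851 windows 31.0% held ACAAT, 18.7% ACAAAG and 13.6% TATAAA, and the motifs share no overlap in the windows printed. The sequences are Acan (chr7:79052976-79053275, plus strand), Hapln1 (chr13:89540386-89540685, plus strand), Cnmd (chr14:79662134-79662433, minus strand) and Ucma (chr2:4975872-4976171, plus strand), each written on the strand of its gene.
Acan: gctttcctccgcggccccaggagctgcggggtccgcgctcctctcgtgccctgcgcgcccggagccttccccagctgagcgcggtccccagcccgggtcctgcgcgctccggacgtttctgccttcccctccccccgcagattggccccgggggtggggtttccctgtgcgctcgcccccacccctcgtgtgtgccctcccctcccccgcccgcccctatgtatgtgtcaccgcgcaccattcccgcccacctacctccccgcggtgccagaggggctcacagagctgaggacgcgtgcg
Hapln1: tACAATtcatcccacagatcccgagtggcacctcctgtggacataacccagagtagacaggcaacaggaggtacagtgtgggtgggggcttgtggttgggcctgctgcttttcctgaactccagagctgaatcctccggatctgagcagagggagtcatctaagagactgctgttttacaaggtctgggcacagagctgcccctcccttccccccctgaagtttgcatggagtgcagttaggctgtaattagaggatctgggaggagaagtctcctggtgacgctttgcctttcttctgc
Cnmd: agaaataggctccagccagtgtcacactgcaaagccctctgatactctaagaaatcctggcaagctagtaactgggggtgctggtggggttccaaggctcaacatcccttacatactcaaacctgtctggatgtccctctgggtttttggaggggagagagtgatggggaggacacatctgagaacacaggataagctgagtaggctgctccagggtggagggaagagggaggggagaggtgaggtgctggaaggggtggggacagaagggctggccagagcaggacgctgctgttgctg
Ucma: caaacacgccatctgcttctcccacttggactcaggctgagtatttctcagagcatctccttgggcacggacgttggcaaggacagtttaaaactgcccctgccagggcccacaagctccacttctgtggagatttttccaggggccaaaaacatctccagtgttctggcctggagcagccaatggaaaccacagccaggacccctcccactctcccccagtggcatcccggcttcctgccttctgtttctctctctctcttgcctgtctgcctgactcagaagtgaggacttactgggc
The Hapln1 window held 1 match to ACAAT at its 5′ end and the other windows none of the 3 motifs, which says only that these letters are not in these windows. Of the windows not printed, that of Sox5 held 1 ACAAT and each of the 6 of Sox6 held ACAAT or ACAAAG, 2 of them with TATAAA. Over all windows 42.9% held ACAAT or ACAAAG. G and C made up 74% of the Acan window, 54.3% of the Hapln1 window and 56% of both the Cnmd and the Ucma window.

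Across the 6 libraries the 9 genes did not follow 1 pattern. Of 36 pairs, 27 had a positive Pearson r of log2 CPM, and 5 had an r above 0.8. These 5 were Sox9 with Sox5, Sox9 with Hapln1, Sox5 with Hapln1, Hapln1 with Cnmd and Col2a1 with Ucma. For Sox9 with Sox5 r was 0.918 (exact permutation p = 0.00833) and Spearman rho 0.943 (exact permutation p = 0.0167), and r was 0.879 without WT-795 and mut-596, the libraries farthest from the median of Sox9. For Hapln1 with Cnmd r was 0.848 (exact permutation p = 0.0389) and rho 0.886 (exact permutation p = 0.0333), with r at 0.745 without WT-597 and WT-596. For Col2a1 with Ucma r was 0.855 (exact permutation p = 0.0333) and rho 0.714 (exact permutation p = 0.136), and r was 0.512 without mut-596 and WT-795. Sox9 and Col2a1 had an r of -0.154 (exact permutation p = 0.806) and a rho of 0.0286 (exact permutation p = 1), with r at -0.156 without WT-795 and mut-596. Acan and Hapln1, whose proteins form 1 complex with hyaluronan, had an r of -0.724 (exact permutation p = 0.0972) and a rho of -0.6 (exact permutation p = 0.242), with r at -0.361 without WT-597 and mut-795. No pair passed after Benjamini-Hochberg adjustment over the 36, where the smallest adjusted p was 0.28 for r and 0.2 for rho. After the group means were removed, a description chosen after the data were seen that leaves 4 residual degrees of freedom, 6 pairs had an r above 0.8, the 5 named and Col2a1 with Snorc (0.838). On that scale r was 0.932 for Sox9 with Sox5, 0.839 for Hapln1 with Cnmd, 0.939 for Col2a1 with Ucma, 0.019 for Sox9 with Col2a1 and -0.711 for Acan with Hapln1.

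**Figure D3:**
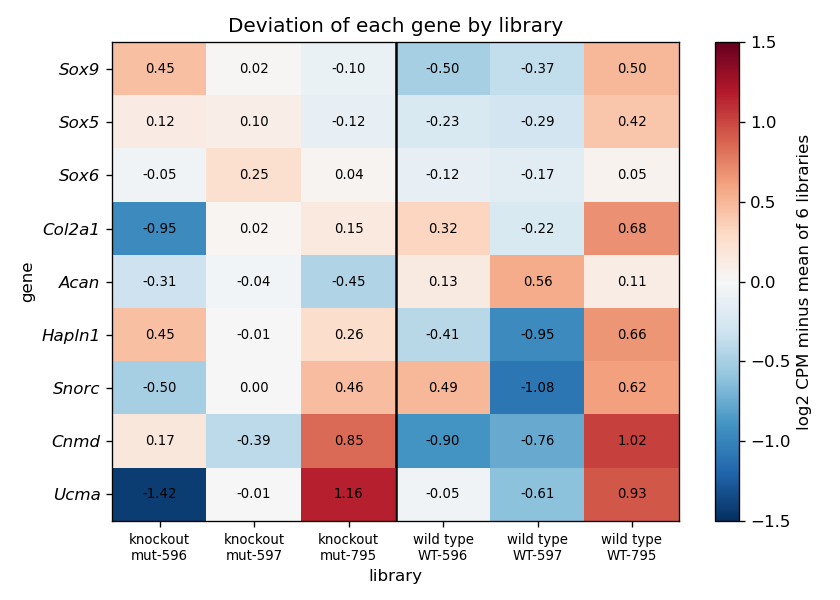
Deviation of log2 CPM from the mean of all 6 libraries for each gene (rows) in each library (columns, knockout left and wild type right of the line), red above and blue below that mean. In mut-596 Sox9 and Hapln1 are at 0.45 while Col2a1 is at -0.95 and Ucma at -1.42, and WT-795 is above the mean for all 9 genes.

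The library mut-596 combined the second highest Sox9 level with the lowest Col2a1 level. The log2 ratio of Sox9 to Col2a1 was 0.22, -1.19 and -1.43 in the knockout libraries, against -1.995, -1.33 and -1.37 in the wild-type libraries. Its mean was -0.80 in knockout and -1.57 in wild type, a difference of 0.77 with mut-596 the highest and WT-596 the lowest (exact permutation p = 0.3). Without mut-596 that difference was 0.26. In such a ratio the lengths of the genes cancel between groups. The ratio of Acan to Col2a1 had close means, at 0.01 ± 0.62 in knockout and 0.02 ± 0.70 in wild type (log2, SD, n = 3 each, exact permutation p = 0.9), with a scatter among libraries of a group far above that difference. Relative to Col2a1, Hapln1 was at -0.22 ± 0.79 in knockout and -1.21 ± 0.41 in wild type (SD, n = 3 each, exact permutation p = 0.2), a difference of 0.99 that was 0.53 without mut-596. Each of the 10 ratios tested had an adjusted p of 0.5 or more over the 10. With the GC correction the difference was 0.33 for Sox9 to Col2a1 and 0.13 for Hapln1 to Col2a1.

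**Figure D4:**
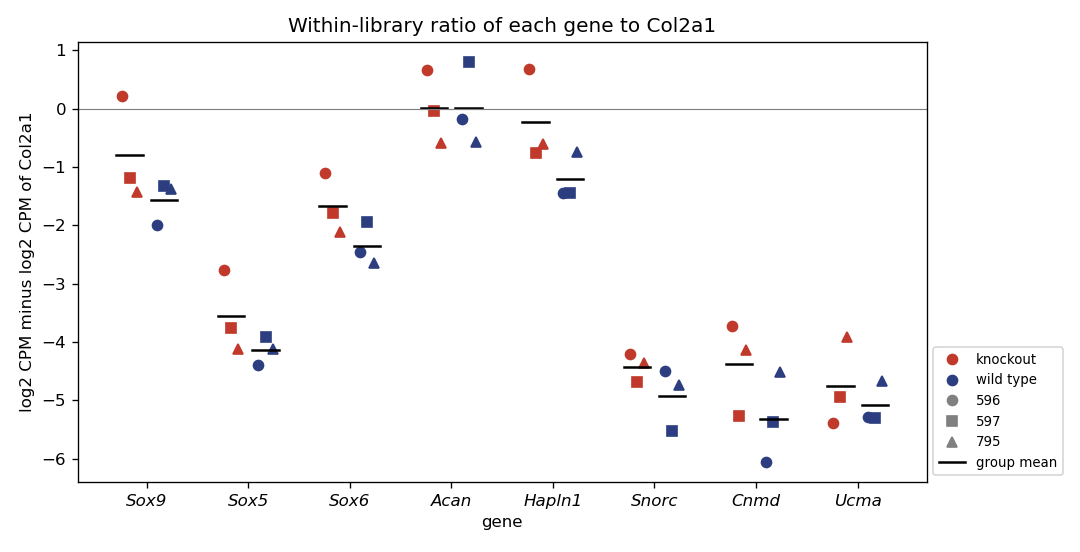
Log2 CPM of each gene minus log2 CPM of Col2a1 in the same library (y axis), for 8 genes (x axis), knockout points left of wild-type points and shapes giving the library number, with group means as black lines. The points of mut-596 are the highest of their group for every gene except Ucma, and the groups overlap for each of the 8 genes.

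Divided by exon length, 4 of the 9 genes stood at a similar level. In knockout these were Hapln1 at 11.4 ± 1.82, Sox9 at 10.9 ± 2.26, Acan at 10.6 ± 1.57 and Col2a1 at 8.88 ± 3.22 CPM per kilobase (SD, n = 3 each), neighbours that did not differ beyond their spread. In wild type the order was Acan at 15.3 ± 2.80, Col2a1 at 12.5 ± 3.79, Sox9 at 9.54 ± 3.85 and Hapln1 at 9.10 ± 5.38 CPM per kilobase (SD, n = 3 each), again with overlapping spreads between neighbours. Snorc, Ucma, Cnmd and Sox6 followed at 4.92, 3.94, 2.05 and 1.64 CPM per kilobase in knockout and 5.47, 3.86, 1.73 and 1.47 in wild type. Sox5 came last at 0.449 CPM per kilobase in knockout and 0.437 in wild type. The exons of Sox5 and Sox6 add up to 14.4 and 14.8 kilobases over all annotated transcripts, which lowers their values per length where few of those transcripts are made. Col1a2, a type I collagen chain of fibrous tissue, was at 1350 CPM per kilobase in knockout and 1236 in wild type, and Col11a1, a minor fibrillar chain that copolymerises with type II collagen, at 208 in knockout and 167 in wild type.

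Of 37 further genes of cartilage matrix and the SOX trio's programme, 32 were tested, and none passed over all genes by edgeR. At an unadjusted edgeR p under 0.05 there were 4, 3 of them lower, beside 10.5% of all genes, 7.12% lower. Their median log2 fold change was -0.02, with 15 above 0 and 17 below. The 3 lower genes were Chad (-1.19, SE 0.27), Comp (-1.05, SE 0.25) and Matn4 (-0.82, SE 0.29), which encode chondroadherin, cartilage oligomeric matrix protein and a matrilin. Chad averaged 5.62 ± 0.327 CPM in knockout libraries against 12.8 ± 2.95 CPM in wild-type libraries (SD, n = 3 each), and the groups did not overlap for any of these 3 genes, which were named for their small p. Of the 32 tested, 3 genes had every knockout library lower, beside 6.22% of all genes, and 2 had every knockout library higher, beside 890 of all 15712 genes. These 2 were Xylt1 and Papss2, which encodes an enzyme that activates sulphate. Xylt1, an enzyme that starts glycosaminoglycan chains on proteoglycan cores such as aggrecan, was at 0.65 (SE 0.25), the opposite sign to Acan. Each of the 4 had an edgeR adjusted p of 0.459. With the GC correction Comp was at -0.57, and without WT-795 the 3 lower genes passed (edgeR adjusted p = 0.0129 for Chad, 0.00922 for Comp and 0.0344 for Matn4), in the fit that called 9.62% of all genes. In that fit Trps1, of the same list, also passed and was higher in knockout (log2 fold change 0.93, edgeR adjusted p = 0.0278). Among 12 hypertrophic chondrocyte markers tested, 8 lay below 0 with a median of -0.17, and Col10a1, the collagen of hypertrophic cartilage, averaged 27.6 ± 7.72 CPM in knockout libraries against 36.3 ± 15.9 CPM in wild-type libraries (SD, n = 3 each). The 10 tendon and ligament markers had a median of -0.0028 with 6 below 0, and the 11 osteoblast markers tested a median of -0.16 with 8 below 0. No member of these 3 lists passed the threshold. At an unadjusted edgeR p under 0.05, 1 hypertrophic, 4 tendon and 1 osteoblast marker were lower, beside 7.12% of all genes. Of 16 other SOX genes, 9 were tested with a median of -0.26, 5 below 0 and none past the threshold (0 at an unadjusted p under 0.05).

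The genes most like the set in pattern were sought by the Pearson r of log2 CPM with the mean centred profile of the 9, over the same 6 libraries and 8930 candidates. That profile was -0.23, -0.01 and 0.25 in the knockout libraries, against -0.14, -0.43 and 0.55 in the wild-type libraries (log2). The 5 highest were Gm3375 (r = 0.985), Plekhf2 (0.980), 4930453N24Rik (0.974), Uchl3 (0.973) and Pafah1b2 (0.962). For Sox9 alone they were Zmynd11 (r = 0.994), Prc1 (0.994) and Git2 (0.993). Spearman rho was 1 for Gm3375, Uchl3 and Pafah1b2 and 0.943 for the other 5 genes. With 6 points and so many candidates such values are a description of these libraries.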

How the data were processed

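Per the labels' protocols, RNA came from a micro column kit and libraries from a low-input full-length cDNA kit (Smart-seq V4, Nextera XT), which does not mark strand. The deposited counts are whole numbers per gene, not normalized by the authors; the submitters' processing notes name GRCm38.p6 and DESeq2. The aligner and counter, with their settings for strand and multiple matches, are not stated in those sources. The authors' deposited table gives log2 fold changes, knockout over wild type. The build named matches that of the annotation, GENCODE M21.

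Counts were scaled by TMM, filtered with filterByExpr and tested with edgeR 4.0.16 (glmQLFit, glmQLFTest) in R 4.3.3 over 15712 genes, two-sided, without covariates, adjusted by Benjamini-Hochberg with a threshold of 0.05. An SE is the size of the fold change over the square root of F, and intervals use the t distribution of the fit. Log2 CPM used a prior count of 2. On simulated counts of 15712 genes the procedure recovered 28.4% of 2-fold, 87.7% of 4-fold and 98.4% of 8-fold changes, with 14 false calls. Alternatives used limma 3.58.1 and DESeq2 1.42.0. The GC correction took offsets from a loess of log2 count on transcript GC in each library.

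The members and gene lists were chosen with earlier results of these data known. Genes named are the members, Fbn1, list members with the smallest unadjusted p (up to 4 for cartilage and 2 for other lists) and the genes of highest likeness. Col10a1, Col1a1, Col1a2, Col3a1, Col11a1, Papss2 and Trps1 are named outside this rule, after their values were seen. Sox5os1 is named for its overlap, and Xist and Ddx3y as a check of the libraries. No 2 libraries held identical counts.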

Additional observations from a re-analysis of the deposited data

How the results depend on the processing

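Of the 9 fitted fold changes, those of Sox6, Col2a1, Acan and Hapln1 kept their sign under all 18 alternatives, all fixed with the design. Of these, the Xist covariate rests on mut-795 as its only knockout library. With that fit left aside, no setting with all 6 libraries put any of the 9 genes past the threshold. The number of genes past it, 1 in all, was 270 with no filter on low counts and 4 with the GC correction and replicate block. With 1 library left out it lay between 1 and 1512, the highest without WT-795 and 9 without mut-795, and the members past it between 0 and 1, the 1 being Hapln1 without WT-795. Changed signs were as follows. Sox9 was at -0.040 with the Xist covariate and -0.029 with the muscle covariate. Sox5 was at -0.12 with the GC correction, -0.11 with that correction and replicate block, -0.11 with the Xist covariate and -0.10 with the muscle covariate. Snorc was at 0.26, 0.35 and 0.31 with the GC correction, with it and the replicate block, and with the Xist covariate. The log2 ratio of Sox5 to Col2a1 differed by -0.040 with the GC correction. With 1 library left out, the log2 fold change of Sox9 lay between 0.020 and 0.55, Sox6 between 0.074 and 0.22, Sox5 between -0.095 and 0.28, Hapln1 between 0.022 and 0.88, Snorc between -0.54 and 0.12, Cnmd between -0.12 and 1.23 and Ucma between -0.85 and 0.62. That of Col2a1 lay between -0.71 and -0.22 and that of Acan between -0.66 and -0.39. The difference in log2 ratio lay between 0.26 and 1.08 for Sox9 to Col2a1, 0.53 and 1.25 for Hapln1 to Col2a1, -0.33 and 0.38 for Acan to Col2a1, -0.081 and 0.66 for Ucma to Col2a1 and -0.33 and 0.14 for Sox6 to Sox9. Beyond the libraries named, the cause was not tested.

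The numbers in the library names were not taken to pair the libraries. Deviations from the group means correlated at -0.18, 0.24 and -0.20 between libraries of the same number, and mut-596 and mut-795 correlated best with a library of another number. With the replicate block the log2 fold change of Ucma was -0.11, and 0 of the 9 genes and 1 of all genes passed.

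Counts below 70 for Sox5, Snorc, Cnmd and Ucma limit their precision, and Xist, GC trend and muscle markers differ between libraries of these small groups.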
